A study of Arabidopsis thaliana with 12 samples.

Results

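The 24-nt siRNA profiles of 2 *Arabidopsis thaliana* mutants, *pkl-1* and *nrpe1-11*, were set directly against each other, with 3 libraries of each genotype and no WT library in the test. *pkl-1* carries a mutation in *PKL*, and *nrpe1-11* a mutation in *NRPE1*. Each library was made from total RNA of 2-week-old whole seedlings grown on MS plates at 22 °C, with 12 h of light a day by the sample labels. The 3 WT and 3 *nrpd1-3* libraries of the same series are given beside the mutants as reference levels. 6 of the 12 libraries entered the comparison, and 51661 of the 57094 deposited 100-bp bins were kept, those on chromosomes 1 to 5 outside the rDNA with more than 5 RPTM in any of the 6 libraries. RPTM is the number of 24-nt reads in a bin per 10000000 mapped small RNA reads of all lengths, and 1000 RPTM are written as 1 kRPTM. Nothing in the sample labels says whether the replicates came from separate growths, and since seedlings were used whole, fewer cells with siRNAs and fewer siRNAs per cell cannot be told apart.

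In RNA-directed DNA methylation (RdDM), RNA polymerase IV (Pol IV) makes short transcripts that are turned into double-stranded RNA and cut into 24-nt siRNAs. The siRNAs, bound to an Argonaute protein, pair with scaffold transcripts of a second specialized polymerase, Pol V, and guide the methylation of cytosines there. *NRPE1* encodes the largest subunit of Pol V, and *NRPD1* that of Pol IV, so *nrpe1* lacks the scaffold and *nrpd1* the precursors of the siRNAs. PKL (PICKLE) is a CHD3-type chromatin remodeler best known for keeping embryonic genes silent in seedlings. Methylated transposons close to genes on the chromosome arms are classical targets of RdDM, while long transposons around the centromeres are also methylated by pathways that do not need Pol V.

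The 24-nt siRNAs of *pkl* and *nrpe1* differed most on the chromosome arms close to genes, where *pkl* held several times the level of *nrpe1*, whereas over pseudogenes the RPTM totals of their libraries overlapped. Of the 51661 bins, 11423 (22.1%) were called higher in *pkl* and 842 (1.63%) higher in *nrpe1* (limma on log2(RPTM + 1), two-sided, Benjamini-Hochberg adjusted p under 0.01 over all kept bins), so that 93.1% of the called bins were higher in *pkl*. At most of the bins higher in *pkl* almost no siRNA was left in *nrpe1*. In 3575 (31.3%) of them no *nrpe1* library held a read, and in 9381 (82.1%) no *nrpe1* library held more than 3 reads. In the bins higher in *nrpe1* the same shares for *pkl* were 9.14% and 47.6%. Low *nrpe1* levels were also common over all kept bins, where 18.4% to 26.8% of bins had no read in a given *nrpe1* library. In the bins higher in *pkl* this share was 46.5% to 65.8%. These bins were called on the same values, so nothing is read from the shares. The median difference, on the log2(RPTM + 1) scale, was 3.31 in the bins higher in *pkl* and -2.31 in those higher in *nrpe1*. A difference on this scale understates the change of bins with few reads. Without *pkl* replicate 2 or 3 the count higher in *pkl* was 6731 or 6184, and without any 1 of the 6 libraries the count higher in *nrpe1* was 268 to 558. Without any test, all 3 *pkl* libraries lay above all 3 *nrpe1* libraries in 34.9% of bins and below them in 12.5%.

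Mapped reads per library, recovered from the deposited values, ranged from 6967335 to 10087448 in *pkl* and from 6116124 to 6648631 in *nrpe1*, so a single read is worth 0.991 to 1.44 RPTM in *pkl* and 1.5 to 1.64 RPTM in *nrpe1*. *pkl* replicate 1 stood apart from the other 2 *pkl* libraries. It held 558 kRPTM in the kept bins against 917 and 1095 kRPTM in replicates 2 and 3, and 47.1% of its nuclear sum came from the rDNA against 29.0% and 26%. The *nrpe1* libraries held 394, 492 and 486 kRPTM in the kept bins and 46.7% to 54.7% of their nuclear sum in the rDNA. Between *pkl* replicate 1 and the other *pkl* libraries the variance of the recovered reads was 2.12 and 2.34 times that of sampling alone. It was 1.20 times between replicates 2 and 3 and 1.21 to 1.55 times between *nrpe1* libraries. No library was thus a copy of another, but this cannot tell whether libraries shared plants or RNA. The part of the rDNA reads and of this library in the results was not tested, and values without it are given below.

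The calls depend on how the libraries are scaled, since the summed RPTM of the kept bins was 1.87 times as high in *pkl* as in *nrpe1*. The median log2 difference over all kept bins was 0.59. When the kept bins of each library were scaled to equal totals, that median moved by -0.68 and 8483 bins were higher in *pkl* and 5062 in *nrpe1*, 62.6% of calls being higher in *pkl*. Quantile normalization moved it by -0.83 and gave 8124 and 7204 bins (53.0%), and TMM scaling of the recovered reads by edgeR moved it by -0.12 and gave 12481 and 3326 bins (79.0%). The 22 bins in or within 1 kb of the 5 trans-acting siRNA genes, whose siRNAs are made without Pol IV, had a median log2 difference of 0.16 under the authors' scaling. For the 20 bins inside these genes it was 0.08 under the authors' scaling. Under equal totals it was -0.78 there, and under quantile normalization -0.68. In the 1487 bins with a *nrpd1* mean above 5 RPTM the median log2 difference was -0.06 under the authors' scaling and -0.85 under equal totals. RPTM as deposited is used below, and shares of the siRNA total, which no scaling of whole libraries changes, are set beside it.

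The 5 bins with the largest difference in each direction show what the contrast looks like on the sequence itself. The bins P1 to P5 were higher in *pkl* and the bins E1 to E5 higher in *nrpe1*. Each is printed 5′ to 3′ on the plus strand of RefSeq's TAIR10.1, whose chromosomes carry the TAIR10 nuclear sequence, with CG dinucleotides, the symmetric methylation sites, in capitals.
P1 (chr2:5861301-5861400): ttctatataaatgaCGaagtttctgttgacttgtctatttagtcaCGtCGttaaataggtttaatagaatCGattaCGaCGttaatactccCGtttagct
P2 (chr4:1488401-1488500): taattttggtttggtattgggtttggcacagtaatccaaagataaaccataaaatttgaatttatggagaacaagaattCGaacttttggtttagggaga
P3 (chr1:7665401-7665500): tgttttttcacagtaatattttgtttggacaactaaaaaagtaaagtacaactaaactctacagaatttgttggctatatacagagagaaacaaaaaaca
P4 (chr1:24082701-24082800): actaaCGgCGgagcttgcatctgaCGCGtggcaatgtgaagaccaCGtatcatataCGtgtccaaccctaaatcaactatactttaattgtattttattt
P5 (chr2:11177101-11177200): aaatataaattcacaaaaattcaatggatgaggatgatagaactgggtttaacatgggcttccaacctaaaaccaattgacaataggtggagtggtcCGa
E1 (chr2:2601001-2601100): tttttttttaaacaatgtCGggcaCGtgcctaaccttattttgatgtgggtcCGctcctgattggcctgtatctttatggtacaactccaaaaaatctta
E2 (chr2:4997001-4997100): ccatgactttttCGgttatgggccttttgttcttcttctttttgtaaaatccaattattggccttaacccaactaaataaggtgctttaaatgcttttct
E3 (chr1:22167701-22167800): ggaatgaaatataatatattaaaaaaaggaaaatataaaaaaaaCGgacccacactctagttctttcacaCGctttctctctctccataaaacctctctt
E4 (chr5:18500501-18500600): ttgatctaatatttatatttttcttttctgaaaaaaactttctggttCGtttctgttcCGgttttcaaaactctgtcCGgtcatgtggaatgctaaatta
E5 (chr1:13675501-13675600): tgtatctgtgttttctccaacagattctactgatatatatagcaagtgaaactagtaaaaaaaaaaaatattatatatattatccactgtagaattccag

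P1 has 7 CG sites, P4 has 6, P2 and P5 have 1 each and P3 has none. E1 and E4 have 3, E3 has 2, E2 has 1 and E5 has none. The GC content ran from 27% to 40% in P1 to P5 and from 26% to 39% in E1 to E5, so neither set stood outside the other in base composition. These 10 bins were chosen by their measured difference.

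P1, in the pericentromere of chromosome 2 at the edge of *AT2G13960*, which encodes a homeodomain-like protein, had 1190, 2924 and 2946 RPTM in *pkl* and 0, 11.4 and 0 RPTM in *nrpe1*. Its WT level was 75.7 ± 13.3 RPTM (SD, n = 3), so *pkl* lay above WT and *nrpe1* below it. The difference was 9.87 (SE 0.72, limma adjusted p = 1.57e-07) on the log2(RPTM + 1) scale. P2, in an intron of *AT4G03380*, had 3502, 4591 and 5841 RPTM in *pkl* and 1.61, 21.3 and 1.5 RPTM in *nrpe1*, with WT at 2854 ± 302 RPTM. P3, 164 bp upstream of the thionin gene *AT1G21835*, had 423, 898 and 943 RPTM in *pkl* and no read in any *nrpe1* library. Taking 3 reads per library as the limit for *nrpe1*, P3 was at least 159-fold higher in *pkl*. P4 lies in an intron of *AT1G64795*, within *ILA*, which encodes the HEAT-repeat protein ILITYHIA of plant immunity, and had 535, 980 and 1251 RPTM in *pkl* and 0, 3.27 and 0 RPTM in *nrpe1*. P5, 864 bp upstream of *3BETAHSD/D2*, a sterol biosynthesis gene, had 569, 792 and 910 RPTM in *pkl* and 0, 9.81 and 0 RPTM in *nrpe1*. In all 5 bins the groups were separated by more than an order of magnitude, and where *nrpe1* held reads most of them were in replicate 2.

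Over all bins higher in *pkl* the *nrpe1* and *nrpd1* libraries numbered 2 also held more than the others of their genotype. Replicate 2 of *nrpe1* held 33.8 kRPTM in these bins against 18.5 and 23.6 kRPTM in replicates 1 and 3, and replicate 2 of *nrpd1* held 9.60 kRPTM against 2.14 and 1.55 kRPTM. The part of these reads in the result was not tested. Under the alternative settings, P1 to P10 and E1 to E10 always kept their direction and an adjusted p under 0.01. That makes 348 pairs of a bin and a setting, among them those without *nrpe1* replicate 2. These bins were chosen for the largest differences in the same libraries, so nothing is read from their stability.

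P6 to P10 had *nrpe1* levels of at most 1 read in each library. P7, 708 bp upstream of *AT4G09070*, which encodes a protein related to subunit 20 of Mediator, had 115, 357 and 556 RPTM in *pkl* and no read in *nrpe1*. Its WT mean was only 5.37 ± 3.67 RPTM, far below *pkl*, whose level was at least 72.2-fold that of *nrpe1*. P6, 16 bp upstream of *AT5G35680*, had 194, 316 and 382 RPTM in *pkl* and a WT level of 262 ± 47.8 RPTM. P8, P9 and P10 had 169 to 600 RPTM in *pkl*. Of P1 to P10, 5 lay above WT in *pkl* and the other 5 overlapped WT, while all 10 lay below WT in *nrpe1*.

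E1, in the pericentromere of chromosome 2, 675 bp upstream of *AT2G06541*, which encodes a TTF-type zinc finger protein, had no read in any *pkl* library and 83.8, 126 and 165 RPTM in *nrpe1*. WT had 22.1 ± 3.68 RPTM, so *nrpe1* lay above and *pkl* below WT, and the level was at least 32.7-fold higher in *nrpe1* than in *pkl*. The difference was -6.92 (SE 0.48, limma adjusted p = 1.17e-07) on the log2(RPTM + 1) scale. E2, between genes on chromosome 2, had 0, 2.87 and 1.39 RPTM in *pkl* and 143, 288 and 272 RPTM in *nrpe1*, with WT at 82.8 ± 19.8 RPTM. E3, 624 bp upstream of the lectin gene *AT1G60110*, had no read in *pkl* and 37.0, 47.4 and 51.1 RPTM in *nrpe1*, within the WT range. E4, 613 bp upstream of *SUV2*, a gene of the DNA damage response, had no read in *pkl* and 41.9, 45.8 and 34.6 RPTM in *nrpe1*, with WT higher at 92.4 ± 7.88 RPTM. E5, between genes on chromosome 1, had 3.97, 25.8 and 16.7 RPTM in *pkl* and 495, 437 and 540 RPTM in *nrpe1*, with WT at 1586 ± 69.3 RPTM. The bins with the largest differences in favour of *nrpe1* were thus of more than one kind, 6 of E1 to E10 being above WT in *nrpe1*, 2 overlapping it and 2 below it, while *pkl* was below WT in all 10.

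**Figure D1:**
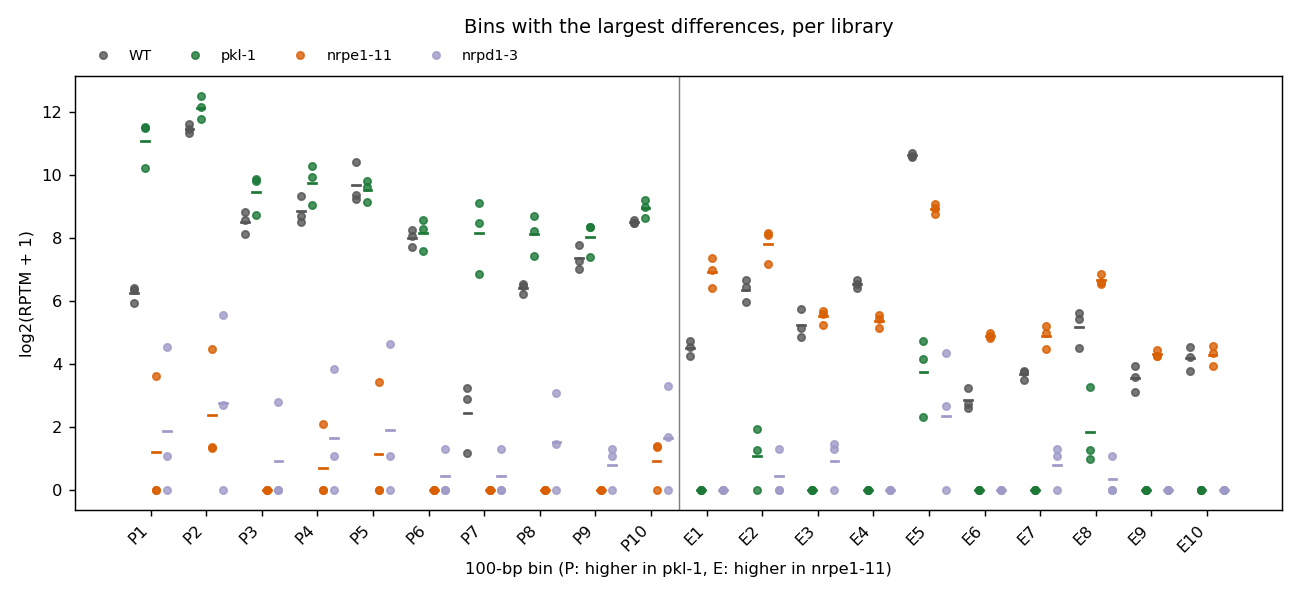
Level of 24-nt siRNAs, as log2(RPTM + 1) on the vertical axis, in bins P1 to P10 (higher in *pkl*) and E1 to E10 (higher in *nrpe1*), with a point per library, a short line for the mean and colours for WT, *pkl-1*, *nrpe1-11* and *nrpd1-3*. In P3, P6, P7, P8 and P9 the 3 *nrpe1* libraries lie at 0, and in E1, E3, E4, E6, E7, E9 and E10 the 3 *pkl* libraries lie at 0.

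Over all kept bins the siRNA total was 1.87 times as high in *pkl* as in *nrpe1*, and 2.20 times without *pkl* replicate 1. The lowest *pkl* library, at 558 kRPTM, lay above the highest *nrpe1* library, at 492 kRPTM (exact two-sided permutation test, p = 0.1, the smallest that 3 libraries against 3 allow). WT held 1117 ± 15.9 kRPTM and *nrpd1* 97.4 ± 15.9 kRPTM. In these bins the mean of *pkl* was thus 76.7% and that of *nrpe1* 41% of the WT mean. The *pkl* figure is lowered by *pkl* replicate 1. The 118 rDNA bins left out held 502, 377 and 387 kRPTM in *pkl* and 481, 445 and 430 kRPTM in *nrpe1*, ranges that overlap. With the rDNA included the ratio was 1.41. The bins higher in *pkl* held 267, 477 and 577 kRPTM in *pkl* and 517 ± 15.6 kRPTM in WT, while the 39396 bins not called held 285, 431 and 507 kRPTM in *pkl* and 346, 423 and 426 kRPTM in *nrpe1*. In the bins not called the libraries of the mutants thus overlapped. These bins were set apart by the same values, so nothing is read from this overlap.

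The arms and the pericentromeres separated the mutants. On the arms *pkl* held 351, 606 and 724 kRPTM and *nrpe1* 181, 234 and 226 kRPTM, a ratio of 2.62 (WT 802 ± 22.5 kRPTM; exact permutation p = 0.1). In the pericentromeres *pkl* held 207, 311 and 371 kRPTM and *nrpe1* 213, 259 and 259 kRPTM, ranges that overlap (ratio 1.22; WT 315 ± 6.76 kRPTM; exact permutation p = 0.4). Of the 28950 arm bins 32.6% were called higher in *pkl*, against 8.72% of the 22711 pericentromeric bins and 22.1% of all bins, whereas bins higher in *nrpe1* made up 1.56% and 1.71%. Without *pkl* replicate 2 the shares higher in *pkl* were 20.9% and 4.18%, and without replicate 3 they were 19.9% and 3.89%. The shares higher in *nrpe1* were 0.470% to 1.03% and 0.611% to 1.17% without any 1 library. Under equal totals the arms still had more bins higher in *pkl* (25.2%) than in *nrpe1* (8.40%), but the pericentromeres turned, with 5.27% higher in *pkl* and 11.6% higher in *nrpe1*. Under quantile normalization the pericentromeric shares were 5.20% and 16.7%, and under TMM 10.4% and 7.20%. As a share of the siRNA total, pericentromeric bins held 37.1%, 33.9% and 33.9% in *pkl* and 54.0%, 52.5% and 53.4% in *nrpe1* (WT 28.2% ± 1.01). These shares did not overlap (exact permutation p = 0.1) and depend on no scaling, so the siRNAs left in *nrpe1* were, in proportion, more pericentromeric than those in *pkl*.

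**Figure D2:**
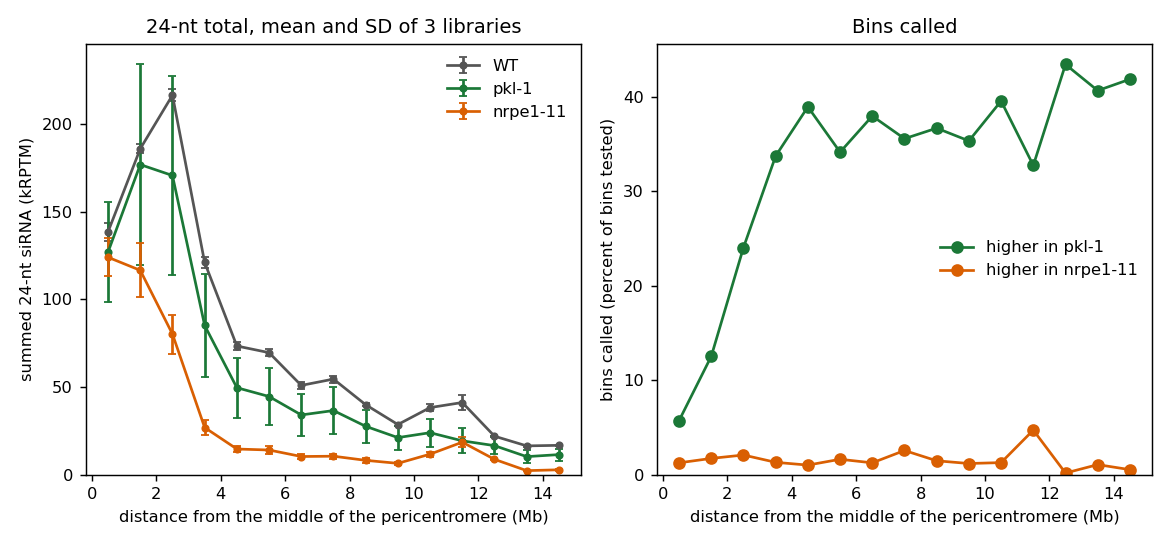
Summed 24-nt siRNA in kRPTM, as mean and SD of 3 libraries of WT, *pkl-1* and *nrpe1-11* (left), and percent of kept bins called higher in *pkl* or in *nrpe1* (right), against the distance from the middle of the pericentromere in 1-Mb windows over the 5 chromosomes (horizontal axes). The share higher in *pkl* is 5.73% in the innermost window and 38.9% between 4 and 5 Mb, under the authors' scaling.

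With distance from the middle of the pericentromere the share of bins higher in *pkl* was 5.73% within 1 Mb, 12.5% from 1 to 2 Mb, 24% from 2 to 3 Mb and 33.7% from 3 to 4 Mb, and it stayed between 31% and 43.4% in each window farther out. The share higher in *nrpe1* was at most 2.57% in every window except that from 11 to 12 Mb, where it was 4.73%, and among the genes given below *AT3G06435*, on the arm of chromosome 3, lies in that window. The chromosomes were similar, with 20.1% (chromosome 3) to 24.8% (chromosome 1) of bins higher in *pkl*. Chromosome 3 had the lowest ratio of totals, 1.54, and was the only chromosome on which the libraries overlapped (exact permutation p = 0.3), while the ratio was 1.79 to 2.12 on the others.

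Bins between genes but within 1 kb of a protein-coding gene showed the largest ratio of all annotation classes. They held 169, 309 and 370 kRPTM in *pkl* and 50.8, 72.6 and 66.9 kRPTM in *nrpe1*, a ratio of 4.46, or 5.35 without *pkl* replicate 1 (WT 399 ± 16.6 kRPTM; exact permutation p = 0.1). 45.1% of them were called higher in *pkl* and 0.974% higher in *nrpe1*, and under equal totals 35.5% and 4.73%. The share higher in *pkl* was 29.9% without *pkl* replicate 2 and 28.9% without replicate 3, and that higher in *nrpe1* was 0.442% to 0.740% without any 1 library. They made up 30.4%, 33.7% and 33.8% of the siRNA total in *pkl*, close to the 35.7% ± 0.992 of WT, and 12.9%, 14.7% and 13.8% in *nrpe1*. Introns (ratio 2.58), UTRs (1.83) and intergenic bins beyond 1 kb (1.69) also separated all *pkl* from all *nrpe1* libraries in RPTM. Coding sequence (1.12), noncoding RNA genes (1.14) and miRNA genes (1.43) did not, and 7.30% of coding bins were higher in *pkl*. For introns, UTRs and bins beyond 1 kb the separation was on the arms only (ratios 3.92, 1.97 and 2.95). In the pericentromeres their libraries overlapped (0.948, 1.26 and 1.19). As a share of the siRNA total the order of bins beyond 1 kb was reversed. They made up 40.3%, 39.1% and 39.3% in *pkl*, 43.8%, 43.4% and 43.9% in *nrpe1* and 38.0% ± 0.335 in WT.

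Pseudogenes, which in this annotation include most transposon genes, did not separate the mutants in RPTM. They held 69.9, 106 and 125 kRPTM in *pkl*, 89.7, 110 and 110 kRPTM in *nrpe1* and 109 ± 5.54 kRPTM in WT, a ratio of 0.973 (exact permutation p = 0.8) that was 1.12 without *pkl* replicate 1. Of the 12421 pseudogene bins 3.71% were higher in *pkl*, far below the 22.1% of all bins, and 2.23% were higher in *nrpe1*. Without *pkl* replicate 1, 2 or 3 the share higher in *pkl* was 2.36%, 1.45% or 1.37%, and without any 1 of the 6 libraries the share higher in *nrpe1* was 0.571% to 1.31%. Under equal totals these shares were 1.89% and 14.4%. Pseudogene bins made up 12.5%, 11.6% and 11.5% of the siRNA total in *pkl*, 22.8%, 22.3% and 22.7% in *nrpe1* and 9.77% ± 0.635 in WT (*pkl* against *nrpe1*, exact permutation p = 0.1). In RPTM, the WT mean lay within the range of each mutant at these elements.

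**Figure D3:**
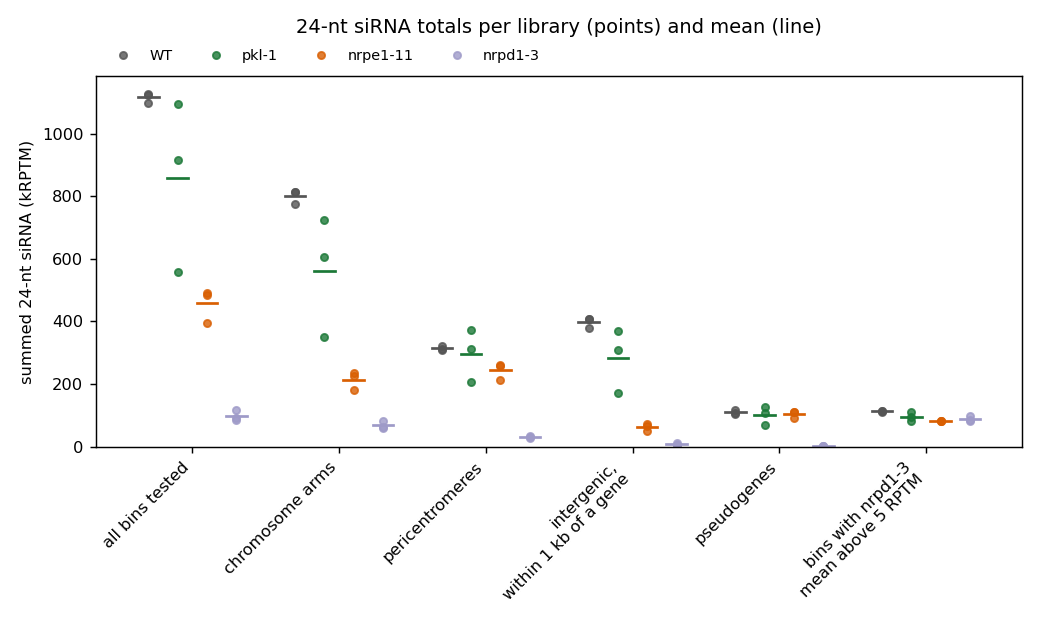
Sum of 24-nt siRNAs in kRPTM (vertical axis, from 0) over groups of bins, with a point per library and a short line for the mean of WT, *pkl-1*, *nrpe1-11* and *nrpd1-3*. On the arms the *pkl* libraries lie at 351 to 724 and the *nrpe1* libraries at 181 to 234, whereas over pseudogenes they overlap.

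On the arms the contrast was largest just outside genes and decreased with distance. Among arm bins 1 to 500 bp from the nearest protein-coding gene 50.2% were higher in *pkl*, against 40.9% at 501 to 1000 bp, 35.9% at 1001 to 2000 bp, 20.2% at 2001 to 5000 bp, 12.5% at 5001 to 20000 bp and 4.11% beyond 20000 bp. Inside genes the share was 23.9%. The ratio of totals followed a similar order, from 4.37 at 1 to 500 bp to 1.30 at 5001 to 20000 bp, with 1.48 beyond 20000 bp. In the pericentromeres the order by distance was the same at a lower level, from 25.4% at 1 to 500 bp to 3.17% beyond 20000 bp, so position near a gene and position on an arm each went with a higher share.

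**Figure D4:**
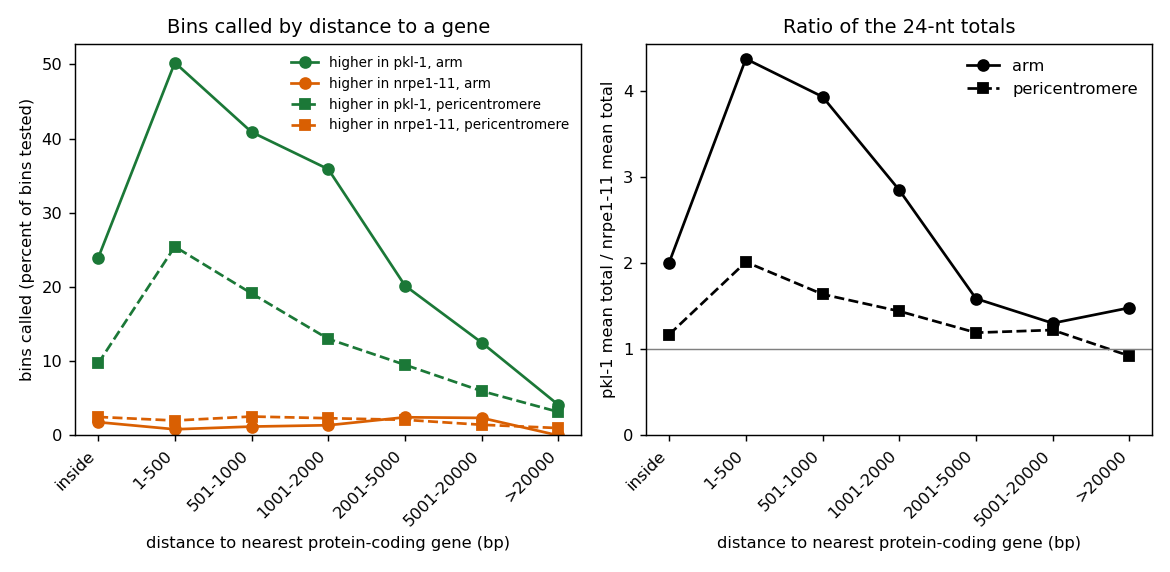
Percent of kept bins called higher in *pkl* or in *nrpe1* (left) and ratio of the mean *pkl* total to the mean *nrpe1* total (right) by distance to the nearest protein-coding gene in bp (horizontal axes), for arms and pericentromeres, under the authors' scaling. The share higher in *pkl* is 50.2% on the arms and 25.4% in the pericentromeres at 1 to 500 bp, and 4.11% and 3.17% beyond 20000 bp.

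The level of a bin in WT, which did not enter the test, also went with the share of calls. Bins above 100 RPTM in WT were higher in *pkl* in 63.1% of cases, those of 20 to 100 RPTM in 46.7%, those of 5 to 20 RPTM in 17.7% and those below 5 RPTM, but not at 0, in 8.42%. The 126 bins without a read in WT broke this order, with 45.2% higher in *pkl*, but they were kept only through reads in a mutant. Strong bins also give the test more reads, whose part in this order was not tested. On the arms alone the shares were 71.2%, 55.6%, 24.9% and 15.0%, and 61.1% without WT reads. In the pericentromeres they were 31%, 24.2%, 7.95% and 3.91%, and 24.1% without WT reads, so at each WT level the arms had the larger share. Runs of adjoining kept bins differed as well. Of single bins 16.8% were higher in *pkl*, of bins in runs of 2 or 3, 29.7%, of those in runs of 4 to 9, 21.8%, and of those in runs of 10 or more, 5.09%, so there was no steady order by length. In runs of 10 or more bins 4.18% were higher in *nrpe1*. Runs of 10 or more bins held 11.9%, 9.91% and 9.72% of the siRNA total in *pkl* and 20.5%, 20% and 20.4% in *nrpe1* (WT 9.30% ± 0.266).

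Most stretches of called bins were short. With gaps of at most 200 bp, called bins formed 7249 stretches higher in *pkl*, of which 60.8% were a single bin and the longest spanned 1300 bp. The 842 bins higher in *nrpe1* formed 656 stretches, 85.1% of them a single bin and the longest 1600 bp. Among the longest stretches higher in *pkl*, chr4:1438201-1439500 had 161, 314 and 422 RPTM in *pkl* and 4.83, 11.4 and 1.5 RPTM in *nrpe1*, with WT at 522 ± 50.1 RPTM. The stretch chr5:11032501-11033800 lies in the pseudogene *AT5G29015* and had 131, 218 and 220 RPTM in *pkl* and 22.6, 18 and 22.6 RPTM in *nrpe1*, an exception among pseudogenes. Of 30327 runs of adjoining bins 7897 held a bin higher in *pkl*, 672 a bin higher in *nrpe1* and 55 both.

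The bins higher in *pkl* were rich in A and T. Their median GC content was 31%, against 36% for all kept bins and 38% for bins higher in *nrpe1*, and they held a median of 4 cytosines in CG context, counted on both strands so that a CG site gives a pair, as did all kept bins, against 6 in the bins higher in *nrpe1*. The bins not called had the same medians as the bins higher in *nrpe1*, 38% GC and 6 cytosines in CG context. On the arms 54.9% of bins with at most 25% GC were higher in *pkl* and 11.6% of those above 40% GC. Sequence between genes is poorer in G and C than coding sequence, and base composition and position were not separated here.

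Set beside WT without a test, *nrpe1* lay below WT, with no overlap of libraries, in 10407 (91.1%) of the bins higher in *pkl*, against 40% of all kept bins. In the same bins *pkl* overlapped WT in 6575 (57.6%), lay below WT in 2669 (23.4%) and above it in 2179 (19.1%), against 69.1%, 21.1% and 9.88% of all kept bins. The bins higher in *nrpe1* were split differently. *nrpe1* lay above WT in 500 (59.4%) of them and *pkl* below WT in 475 (56.4%), and both held in 182 (21.6%), against 7.87%, 21.1% and 0.670% of all kept bins. The calls rest on the same *pkl* and *nrpe1* values, so nothing is read from these shares. As a sum, these 842 bins held 5.76, 9.61 and 11.1 kRPTM in *pkl*, 29.5, 34.9 and 36.3 kRPTM in *nrpe1* and 27.0 ± 1.09 kRPTM in WT.

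Of the 7665 protein-coding genes with a kept bin in the gene or within 1 kb, 4624 (60.3%) had at least 1 bin higher in *pkl*, 230 (3.00%) at least 1 higher in *nrpe1* and 95 both. 129 genes had 5 or more bins higher in *pkl* and 9 had 5 or more higher in *nrpe1*. Neighbouring genes can share bins, and genes with many kept bins have more chances of a call.

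*AT3G42310* (chromosome 3, 14459818 to 14461497), an uncharacterized gene in the pericentromere, had the most bins higher in *pkl*, 14 of 25. Its siRNAs summed to 431, 666 and 798 RPTM in *pkl* and 87.0, 124 and 119 RPTM in *nrpe1*, and WT, at 262 ± 19.8 RPTM, lay between them. *MEE15* (*AT2G16970*, chromosome 2, 7369452 to 7375688), which encodes a major facilitator superfamily protein, had 9 of 10 bins higher in *pkl*, 8 of them inside the gene. It held 93.2, 214 and 245 RPTM in *pkl* and 1.61, 4.91 and 1.5 RPTM in *nrpe1* (WT 127 ± 17.8 RPTM). *HTA4*, which encodes a histone H2A, had 9 of 16 bins higher in *pkl*, with 495, 667 and 775 RPTM in *pkl* and 130, 159 and 125 RPTM in *nrpe1*. In *HTA4*, *nrpd1* held 364 RPTM on average, above WT at 220 ± 29.7 RPTM, so 24-nt reads were present there without *NRPD1*. *AT5G40050*, an F-box/FBD-like gene, had all 7 of its bins higher in *pkl*, with 117, 300 and 319 RPTM against 0, 8.18 and 0 RPTM in *nrpe1*. In these 4 genes the *pkl* and *nrpe1* libraries did not overlap, and the mean of *pkl* was above that of WT.

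The other 6 genes chosen by the number of bins higher in *pkl* were *AT1G35215*, *AT2G16030* (a methyltransferase superfamily protein), *AT2G20670*, *AT5G28237* (a pyridoxal phosphate-dependent enzyme), *AT1G55280* (a PLAT/LH2 domain protein) and *AT4G02910*. *AT2G16030* had the highest level, with 2026, 2723 and 3208 RPTM in *pkl* and 917, 1154 and 1157 RPTM in *nrpe1*. *AT2G20670* and *AT1G55280* had no kept bin in the gene body, so only their flanks were tested, and their called bins lay there. *AT2G20670* held 196, 309 and 386 RPTM in *pkl* and 4.83, 34.3 and 7.52 RPTM in *nrpe1*, near its WT level of 359 ± 18.7 RPTM in *pkl*.

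*AT3G06435* (chromosome 3, 1968288 to 1970946), an uncharacterized gene on the arm, had the most bins higher in *nrpe1*, 17 of 33. Its siRNAs summed to 1534, 3083 and 3585 RPTM in *pkl*, 5335, 6954 and 7331 RPTM in *nrpe1*, 9409 ± 1385 RPTM in WT and 12443 RPTM on average in *nrpd1*. They were thus present without *NRPD1*, and *pkl* and *nrpe1* both lay below the WT mean. A second group lay in the pericentromere of chromosome 3, where *AT3G29645* and *AT3G29639* share bins. *AT3G29645* (chromosome 3, 11480384 to 11481190) had 12 of 22 bins higher in *nrpe1*, with 109, 218 and 252 RPTM in *pkl*, 672, 834 and 911 RPTM in *nrpe1* and 150 ± 16.1 RPTM in WT. Here *nrpe1* was above WT and *pkl* replicates 2 and 3 also lay higher than the WT mean.

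Of the 10 genes chosen in this direction 3 are annotated as nucleases. *AT3G29631* (7 of 16 bins) had 79.3, 159 and 170 RPTM in *pkl* and 395, 492 and 606 RPTM in *nrpe1*. *AT2G13770* (7 of 20 bins) had 48.6, 94.7 and 109 RPTM in *pkl* and 259, 306 and 298 RPTM in *nrpe1*. *AT3G30525* (4 of 14 bins) had 44.6, 64.6 and 85.1 RPTM in *pkl* and 211, 216 and 238 RPTM in *nrpe1*. In the first and the second of these *nrpe1* lay well above the WT means of 116 and 81.9 RPTM, and in the last it was near the WT mean of 237 RPTM. *AT3G29637*, *AT2G13760* and *AT2G06541* completed the pericentromeric genes, with 7 of 25, 7 of 18 and 5 of 15 bins higher in *nrpe1*. *AT3G29637* shares bins with its neighbour *AT3G29631*, and *AT2G13760* with *AT2G13770*, so these genes are not separate places. *AT1G58602*, a disease resistance gene of the LRR and NB-ARC type on the arm of chromosome 1, went both ways. Of its 33 bins 7 were higher in *pkl* and 6 higher in *nrpe1*, and its totals of 230, 353 and 410 RPTM in *pkl* and 279, 283 and 322 RPTM in *nrpe1* overlapped.

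Among genes of DNA methylation, 14 of 47 listed had a kept bin within 1 kb, all on the arms, and 16 of their 33 bins (48.5%) were higher in *pkl* and none higher in *nrpe1*, with a median log2 difference of 2.40 against 0.59 for all kept bins. The share was 22.1% for all kept bins, 32.6% on the arms and 45.1% between genes within 1 kb of a gene, so that of these genes lay near that of the bins close to other genes. The bins higher in *pkl* lay at 9 genes. *VIM1* and *VIM2*, whose proteins bind hemimethylated DNA and maintain CG methylation, had 43.6, 54.5 and 71.1 RPTM and 43.6, 93.3 and 96.2 RPTM in *pkl*. In *nrpe1*, *VIM1* had 0, 1.64 and 0 RPTM and *VIM2* 0, 0 and 1.5 RPTM. *VIM1* in *pkl* was below its WT level of 130 ± 4.67 RPTM, while *VIM2* in *pkl* replicates 2 and 3 was above its WT level of 59.6 ± 3.00 RPTM.

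*SUVH9*, which encodes a SET domain protein that binds methylated DNA and helps bring Pol V to chromatin, had all 3 of its bins higher in *pkl*, with 76.3, 139 and 166 RPTM in *pkl*, 3.22, 13.1 and 0 RPTM in *nrpe1* and 99.1 ± 38.7 RPTM in WT. *MORC6*, an ATPase gene of gene silencing, had both of its bins higher in *pkl*, with 62.5, 123 and 165 RPTM against 3.22, 3.27 and 6.02 RPTM in *nrpe1*. *VIM3*, *DMS3*, *DMS4*, *SUVH2* and *NERD* had 1 or 2 such bins each. Of the 14 totals, 10 had all *pkl* libraries above all *nrpe1* libraries, and *DDM1*, which encodes another chromatin remodeler, had the opposite order, with 44.6, 47.4 and 46.0 RPTM in *pkl* and 54.8, 96.5 and 72.2 RPTM in *nrpe1* but no bin called. Under equal totals 9 lay above and *DDM1* below, and *DMS3* overlapped. These are siRNA levels at the genes, and their transcripts were not analysed here.

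Genes known to be silenced or marked by RdDM gave a mixed picture. *FWA*, a homeobox gene kept silent by methylated repeats at its start, had 3 of 4 bins higher in *pkl*, with 70.4, 132 and 148 RPTM in *pkl*, 6.44, 6.54 and 9.02 RPTM in *nrpe1* and 150 ± 8.57 RPTM in WT. *MEA*, an imprinted Polycomb gene, had 3 of 3 bins higher in *pkl*, all 3′ of the gene, with 17.8, 23.0 and 48.8 RPTM against 1.61, 0 and 0 RPTM. *QQS*, an orphan gene tied to starch content, had 2 of 3 bins higher in *pkl*, but its totals overlapped under equal scaling. At *SDC*, an F-box gene silenced by non-CG methylation, *pkl* had 86.2, 227 and 326 RPTM and *nrpe1* 66.0, 123 and 132 RPTM, which overlap, and no bin was called. The transposon *AtMu1* had 3 bins higher in *pkl* and 2 higher in *nrpe1* of 23, and its totals overlapped under the authors' scaling but were higher in *nrpe1* under equal totals. In all, 11 of the 41 bins (26.8%) of the 5 genes with a kept bin were higher in *pkl* and 2 higher in *nrpe1*, against 22.1% and 1.63% of all kept bins, with a median log2 difference of 0.62 against 0.59 for all kept bins.

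Of 4 embryonic identity genes that PKL represses, *FUS3*, which encodes a B3-domain transcription factor of seed development, had a kept bin. That bin, 3′ of the gene, had 21.8, 38.8 and 34.9 RPTM in *pkl*, no read in *nrpe1* and 40.6 ± 5.91 RPTM in WT. None of the 4 DNA demethylase genes had a kept bin. The 5 trans-acting siRNA genes, whose siRNAs are made from Pol II transcripts, had 2 of 22 bins higher in *pkl* and none higher in *nrpe1*. Both called bins lay 3′ of *TAS1B*, outside the gene. *TAS1C*, the strongest, had 3784, 5672 and 6418 RPTM in *pkl* and 5891, 4586 and 5165 RPTM in *nrpe1*. The libraries overlapped at each of the 5 genes under the authors' scaling, and at each of the 5 all *nrpe1* libraries lay above all *pkl* libraries under equal totals.

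Loci at which RdDM is usually assayed were compared one by one, placed by the primers of the study and taken with 500 bp on each side. Of 36 loci 34 were placed and 24 had a kept bin. At 19 of the 24 all *pkl* libraries lay above all *nrpe1* libraries, at 3 below, and at 2 they overlapped, while among single kept bins 34.9% had all *pkl* libraries above and 12.5% below. A locus total can sum several bins, so the measures are unlike. Under equal totals the counts of loci were 18, 4 and 2. Of their 78 bins, with a shared bin counted at each locus, 45 were called higher in *pkl* and 1 higher in *nrpe1*, against 22.1% and 1.63% of all kept bins. The share higher in *pkl* was 45.1% in bins between genes within 1 kb of a gene. It was 46.7% in bins of 20 to 100 RPTM in WT and 63.1% in those above 100 RPTM. The Pol V loci were chosen in the study for Pol V-dependent transcripts or nucleosomes. The paper reports the *IGN* loci as regions whose transcripts were decreased in *pkl*. It took the transposable elements for qRT-PCR from those with raised transcripts in *pkl*. For these reasons nothing about the loci is read from these counts. Single totals of 3 libraries against 3 cannot give an exact permutation p below 0.1.

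The 6 intergenic loci with Pol V transcripts all lay higher in *pkl*. *IGN5* had 142, 212 and 258 RPTM in *pkl*, 17.7, 39.2 and 9.02 RPTM in *nrpe1* and 258 ± 7.16 RPTM in WT, with 6 of 7 bins called. *IGN32* had 154, 233 and 233 RPTM in *pkl* and 1.61, 4.91 and 3.01 RPTM in *nrpe1*, with WT at 222 ± 58.1 RPTM. At these loci *pkl* replicates 2 and 3 were near WT. *IGN25* and *IGN28* were different, since *pkl* there was well below WT too. *IGN25* had 10.9, 15.8 and 30.7 RPTM in *pkl*, 3.22, 4.91 and 4.51 RPTM in *nrpe1* and 89.4 RPTM in WT. *IGN28* had 57.5, 64.6 and 92.0 RPTM in *pkl*, 6.44, 14.7 and 9.02 RPTM in *nrpe1* and 221 ± 11.8 RPTM in WT. *IGN27* had the smallest ratio, 2.38, and its libraries overlapped under equal totals.

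5 of the 6 loci of nucleosomes stabilized by Pol V had all *pkl* libraries above all *nrpe1* libraries. *PVS4* had 30.7, 58.8 and 86.4 RPTM in *pkl* and 0, 1.64 and 0 RPTM in *nrpe1*. *PVS5* and *PVS6* had no read in *nrpe1*. *PVS3* was the exception, with 105, 175 and 205 RPTM in *pkl* and 114, 129 and 146 RPTM in *nrpe1*, and with 3 bins called higher in *pkl* and 1 higher in *nrpe1*. Under equal totals *PVS3* as a whole was lower in *pkl*. The retrotransposon *AtSN1* had 181, 201 and 247 RPTM in *pkl*, above the WT level of 125 ± 25.2 RPTM, and 3.22, 18 and 6.02 RPTM in *nrpe1*. Both amplicons of the *soloLTR*, which share bins, had 87.2 to 259 RPTM in *pkl* and 11.3 to 27.8 RPTM in *nrpe1*. At *AtGP1* the mutants overlapped, with 23.8, 14.4 and 36.3 RPTM in *pkl* and 16.1, 31.1 and 22.6 RPTM in *nrpe1*.

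**Figure D5:**
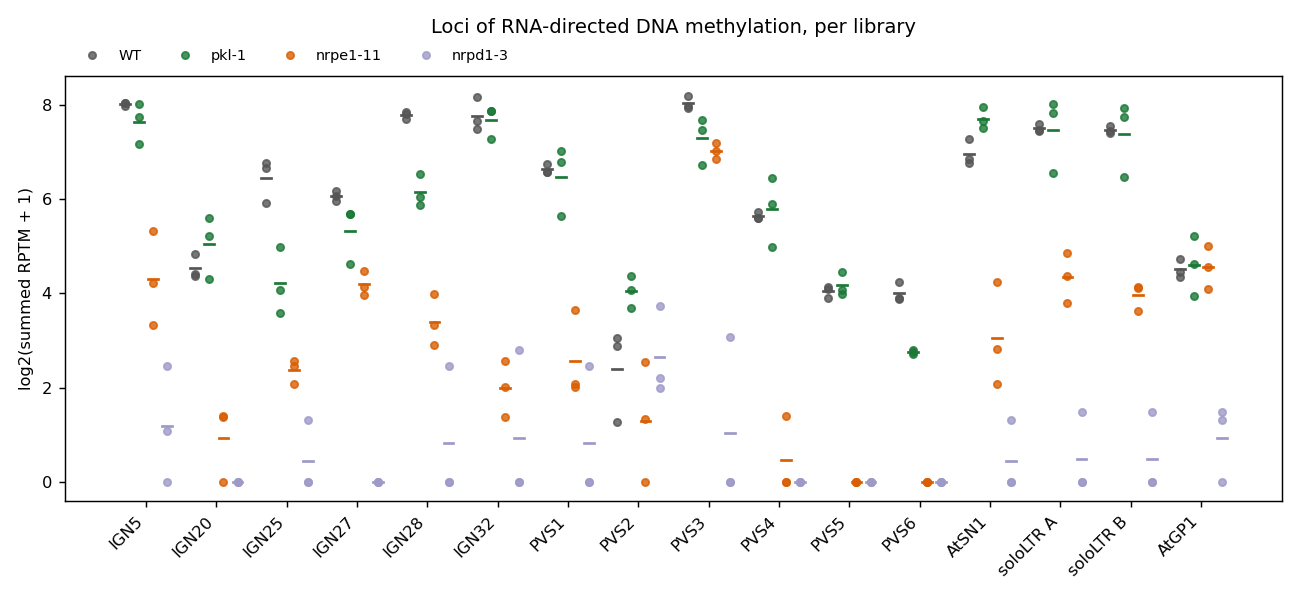
Summed 24-nt siRNA level, as log2(summed RPTM + 1) on the vertical axis, at the Pol V transcript loci (*IGN*), the Pol V-stabilized nucleosome loci (*PVS*) and the reporter loci with a kept bin, with a point per library, a short line for the mean and colours for the 4 genotypes. The *pkl* points lie above the *nrpe1* points at every locus shown except *PVS3* and *AtGP1*, where they overlap, and under equal totals *IGN27* overlaps as well and *PVS3* lies lower in *pkl*.

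Of 8 transposable elements tested by qRT-PCR in the study that had a kept bin, 5 lay higher and 3 lower in *pkl*. *AT2TE82000* had 259, 377 and 439 RPTM in *pkl* and 4.83, 21.3 and 3.01 RPTM in *nrpe1*, with WT at 500.4 ± 77.9 RPTM. *AT4TE06990* had 63.4, 108 and 137 RPTM in *pkl* and 1.61, 1.64 and 3.01 RPTM in *nrpe1*. *AT1TE42205*, *AT5G34800* and *AT2G05660* had ratios of 3.91, 3.04 and 2.88, with 1 bin called at *AT1TE42205* and none at the other two. The 3 elements lower in *pkl* held few reads and had no bin called. *AT2TE78320* had 10.9, 12.9 and 15.3 RPTM in *pkl*, 25.8, 19.6 and 30.1 RPTM in *nrpe1* and 83.7 ± 12.4 RPTM in WT, and the order turned when 1000 bp were taken on each side. *AT5TE47170* and *AT4TE10320* stayed at or below 13.5 RPTM in each *pkl* and *nrpe1* library. The 5 genes tested by qRT-PCR had no kept bin within 500 bp. *AT1G60110*, which the paper names among its genes verified by qRT-PCR, has the bin E3 624 bp upstream, beyond that flank.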

How the data were processed

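24-nt siRNAs were measured by small RNA sequencing in *pkl-1* and *nrpe1-11* seedlings. The authors extracted 18 to 30 nt RNA from a gel, cut off adapters and low-quality bases (q < 30), discarded structural RNA reads, mapped the rest to TAIR10, counted 24-nt reads in 100-bp bins and divided by all mapped reads. The submitters' processing notes name CASAVA 1.8, Trim Galore 0.4.0, BWA 0.7.15, bedtools and edgeR. The deposited values are therefore a signal in RPTM, normalized for depth by the authors, with each replicate separate. By the methods of the paper mapped reads were unique, yet 9.36% of the kept bins hold only 24-mers that recur in the genome, and reads there cannot be told apart from those of a copy.

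Nuclear bins outside the rDNA of chromosomes 2 and 3 (118 bins) above 5 RPTM in any of the 6 libraries were kept, 51661 bins, and 4096 lower bins were left out. lmFit and eBayes with a trend (limma 3.58.1, R 4.3.3) were fitted to log2(RPTM + 1). Divided by the RPTM of a single read, 100% of values in each library came out whole within 0.01 reads (in *pkl* replicate 1 this step is near 1, so rounding could look alike), and edgeR 4.0.16 (quasi-likelihood) and DESeq2 1.42.0 were run on the recovered reads as alternatives. The quasi-likelihood test with the authors' mapped totals called 11533 bins higher in *pkl* and 1005 higher in *nrpe1*, and DESeq2 called 7971 and 597. The scripts were tested on simulated data. The value of 3 reads (2.97 to 4.91 RPTM a library) was taken as the limit of a bin without reads and, like all depth limits here, covers counting error only. Exact two-sided permutation tests served for single values per library, and group values are means ± SD over 3 libraries.

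Annotation, from RefSeq TAIR10.1, was taken at the middle of each bin. A pericentromere is the longest stretch of 100-kb windows of a chromosome with more bases in pseudogenes than in protein-coding genes, with breaks of up to 300 kb bridged. Bins named are, in each direction, the 10 with the largest difference among called bins whose groups do not overlap, at least 200 bp apart. Genes named are the 10 with the most called bins in each direction, those of the gene lists with a kept bin, and the loci with one. Stretches named are among the 5 longest in each direction. The comparison, the members and the lists were chosen with earlier results of these data known. *AtMu1* and *AT5TE17325* could not be placed by primers, and *AtMu1* was taken from its gene. Alternatives were other pseudocounts, filters, scalings, tools and thresholds, a joint fit with WT and *nrpd1*, a replicate block and leaving out each library.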

Additional observations from a re-analysis of the deposited data

How the results depend on the processing

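The larger share of bins higher in *pkl* held under all settings tried, at 53.0% (quantile normalization) to 97.4% of calls, while the counts moved. Bins higher in *pkl* (11423) were 7270 with a pseudocount of 0.1, 2165 among bins in which every 24-mer is unique and 7290 when runs of adjoining bins were merged. Leaving out 1 library gave 6184 to 11094, with over 1.5 times fewer only without *pkl* replicate 2 (6731) or 3 (6184). Bins higher in *nrpe1* (842) were 317 with a pseudocount of 0.1, 1505 with 5, 541 without a filter, 5062 with equal totals, 7204 with quantile normalization, 3326 with edgeR and TMM, 2230 in the fit of all 12 libraries, 260 among unique bins and 3046 at an adjusted p of 0.05. Leaving out any 1 of the 6 libraries cut them to between 268 and 558. The share of calls higher in *pkl* (93.1%) was 62.6% with equal totals and 79.0% with TMM, and 93.9% to 97.4% when 1 library was left out. The ratio of totals (1.87) was 1.61 to 2.20 when 1 library was left out. *AT2TE78320*, lower in *pkl* (log2 ratio -0.95), was higher with 1000 bp on each side (1.01). The causes were not tested.

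The sample labels do not say whether same-numbered replicates of the 2 genotypes share more than the number. The deviations of same-numbered libraries correlated by 0.082, 0.028 and 0.024. Between libraries of unlike number the correlations ran from -0.055 to 0.030, the highest being that of *pkl* replicate 3 with *nrpe1* replicate 2. Same-numbered libraries were not treated as paired, and whether they were handled together was not tested. With a replicate block the fit called 14197 bins higher in *pkl* and 2239 higher in *nrpe1*. In a bin without reads 2.97 to 4.91 RPTM would still be possible, so absence at low levels was not detectable.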
